A study of Mus musculus with 6 samples.

Results

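Transcript levels of 9 genes for ADAMTS proteases were described in cultured mouse granulosa cells (GCs), the somatic cells around the oocyte, with and without dihydrotestosterone (DHT), an androgen that cannot be aromatized to estrogen. The members, *Adamts1*, *Adamts2*, *Adamts4*, *Adamts5*, *Adamts7*, *Adamts9*, *Adamts10*, *Adamts12* and *Adamts15*, were chosen by name, and all 9 were present among the 16300 genes of the deposited table. GCs of wild type C57BL/6J mice aged 8 to 9 weeks were punctured from ovaries on the day of estrus, cultured first in serum and then without it, and kept for 24 h in medium (control, 3 libraries) or in medium with 25 nM DHT (3 libraries). Each library held the pooled GCs of several mice, and both groups shared strain, genotype, age and culture. Whether control and DHT cells came from the same pools is not stated in the sources used here. The sample labels speak of whole ovary in the extraction text and of GCs elsewhere.

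ADAMTS proteases are secreted zinc metalloproteases that carry thrombospondin repeats, by which they are held in the extracellular matrix. Some cleave the large proteoglycans versican and aggrecan, some trim the ends of procollagens, and some bind the fibrillin microfibrils. In the ovary, ADAMTS1 is known for its induction by the ovulatory hormone surge through the progesterone receptor, and for the cleavage of versican in the matrix of the cumulus.

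DHT did not move these genes in 1 direction. *Adamts4* doubled and *Adamts10* rose slightly, while *Adamts9* and *Adamts2* fell. For *Adamts1*, *Adamts5*, *Adamts7*, *Adamts12* and *Adamts15* no difference passed the test. Thus 2 of the 9 members were higher and 2 were lower at an adjusted p of at most 0.05 (limma on log2 values of all 16292 genes tested, Benjamini-Hochberg adjustment), where 6.52% of all genes tested were higher and 4.66% were lower. Without the intensity trend of limma, or without DHT replicate 3, only 1 member was higher and none was lower. With an absolute log2 fold change above 1 as a further threshold, 1 member was called (*Adamts4*), against 1.31% of all genes. The control and DHT libraries did not overlap in 5 members (*Adamts2*, *Adamts4*, *Adamts9*, *Adamts10* and *Adamts12*), which was so for 30.6% of all genes. The median log2 fold change was 0.23 over the 9 members and -0.01 over all genes tested. In bulk libraries, fewer cells of a type and less RNA per cell cannot be told apart.

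The libraries held 36111177 to 41928585 reads counted on genes. Of 10 granulosa markers 9 were in the table, with *Cyp19a1* not analysed here, and their summed level ran from 124940.4 to 138943 normalized counts in control and from 112169 to 121451 in DHT. In that list *Hsd17b1* rose (log2 fold change of 0.48, adjusted p = 0.0044 by limma, and 0.059 without the intensity trend) and *Inha* fell (-0.61, adjusted p = 0.0016), while *Foxl2* (-0.15, adjusted p = 0.049) was at the threshold. For *Foxl2* the adjusted p was 0.050 with TMM scaling, just above the threshold, 0.076 by DESeq2, 0.13 without the intensity trend and 0.097 to 0.14 without control replicate 1, control replicate 2 or any DHT library. The median log2 fold change of the granulosa list was -0.05. Without *Inha*, the most abundant gene of the list over both groups together, the sum ran from 67630 to 88318 in control and from 76171 to 89180 in DHT, so that the groups overlapped. Theca and stroma markers, 8 of 10 in the table with the theca genes *Cyp17a1* and *Insl3* not analysed here, summed to 6634 to 8506 in control and 10044 to 11687 in DHT. Most of that sum was *Acta2*, a gene of smooth muscle actin that cultured cells can also express (log2 fold change of 0.76, adjusted p = 0.0056 by limma, and 0.066 without the intensity trend). *Myh11* rose too (0.67, adjusted p = 0.013 by limma, but 0.059 without DHT replicate 2, 0.063 without DHT replicate 3 and 0.072 without the intensity trend). The median log2 fold change of that list was -0.20, opposite in sign to its sum, and without *Acta2* the sum ran from 1898 to 2341 in control and from 1827 to 2115 in DHT, with overlap. Endothelial markers (6 of 10) summed to 285 to 332 in control and 251 to 339 in DHT, with a median log2 fold change of 0.13. Oocyte markers (9 of 10) summed to 394 to 893 in control and to 643, 112 and 664 in DHT replicates 1, 2 and 3, with a median log2 fold change of -0.98 and none past the threshold. DHT replicate 2 stood apart there, with *Zp3*, *Oosp1* and *Dppa3* at 0, and without it *Adamts2*, *Adamts4* and *Adamts9* still passed the adjusted p and *Adamts10* did not. Immune markers (6 of 10) summed to 519 to 604 in control and 423 to 663 in DHT, with a median log2 fold change of 0.05, among them *Csf1r* (log2 fold change of -0.64, adjusted p = 0.027 by limma, and 0.088 to 0.10 without control replicate 1, DHT replicate 2 or DHT replicate 3). The granulosa sum and the theca and stroma sum did not overlap between the groups, as held for 5 of the 9 members, only while *Inha* and *Acta2* were counted in them. The part of other cell types in the results for the ADAMTS genes was not tested.

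The 9 genes differed widely in level. Per kilobase of exon, the mean control levels of normalized counts (reads divided by the size factor of the library) were 884 ± 169 for *Adamts9* and 810.2 ± 155 for *Adamts1* (SD, n = 3), and the ranges of these 2 genes overlapped. *Adamts5* followed at 509 ± 127, *Adamts10* at 402 ± 26.5 and *Adamts2* at 351 ± 37.7, each overlapping the next in this order. *Adamts7*, at 119.5 ± 7.91, and *Adamts4*, at 99.81 ± 12.99, lay below these and did not differ beyond their spread. *Adamts12* reached 26.8 ± 4.90 and *Adamts15* only 0.82 ± 0.41. Among all genes of the table, *Adamts1* stood at percentile 86.0 of the level per kilobase and *Adamts15* at percentile 0.11.

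The order of the levels was different in DHT. *Adamts1* was then first, at 941 ± 72.5 normalized counts per kilobase, and its range no longer overlapped that of *Adamts9*, at 563 ± 57.6. *Adamts4*, at 205 ± 35.2, passed *Adamts7*, at 131 ± 5.49, again with no overlap between these 2 genes. The other 5 genes kept their ranks.

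**Figure D1:**
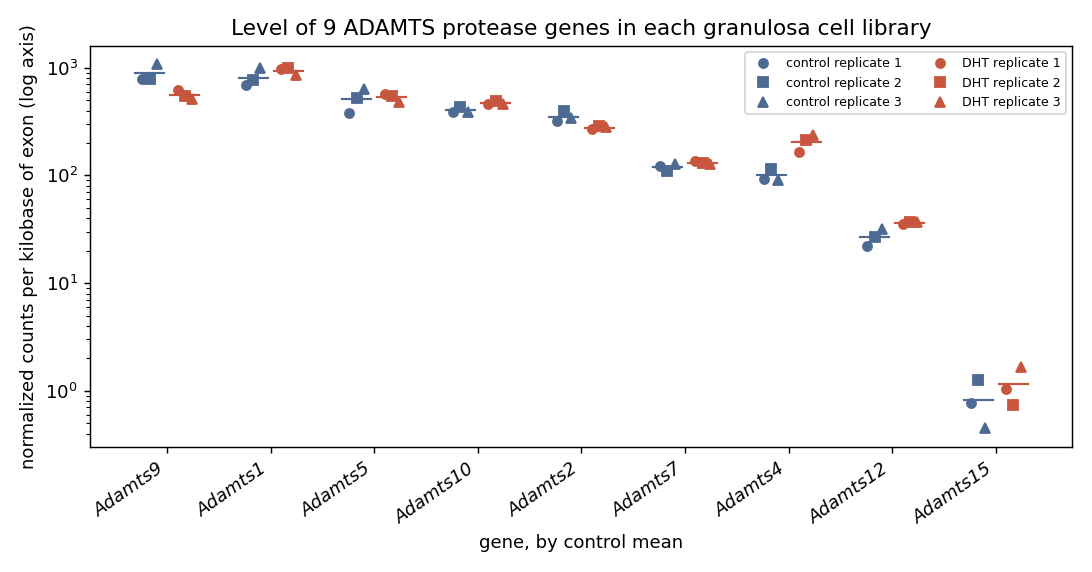
Level of each ADAMTS gene (normalized counts per kilobase of exon, log axis) in the 3 control (blue) and 3 DHT (red) libraries, with symbols for the replicates and bars for the group means. The DHT points of *Adamts4* lie above and those of *Adamts9* below all control points, and *Adamts15* lies far under the other genes.

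Summed over the members, the level per kilobase was 2795, 3143 and 3672 in control replicates 1, 2 and 3 and 3231, 3253 and 2989 in DHT replicates 1, 2 and 3. The means, 3203 ± 441 and 3158 ± 147 (SD, n = 3), gave a ratio of DHT to control of 0.986, and the control libraries lay on both sides of the DHT libraries. The make-up of this sum was different. *Adamts9* held a share of 27.5% ± 2.38 in control and of 17.8% ± 1.37 in DHT (SD, n = 3). That of *Adamts1* was 25.2% ± 1.40 in control and 29.8% ± 0.97 in DHT, and that of *Adamts4* was 3.16% ± 0.60 in control and 6.53% ± 1.36 in DHT. For these 3 genes no DHT library overlapped a control library. Shares of a sum are not independent of each other, and exonic lengths count every annotated exon, used or not in these cells.

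**Figure D2:**
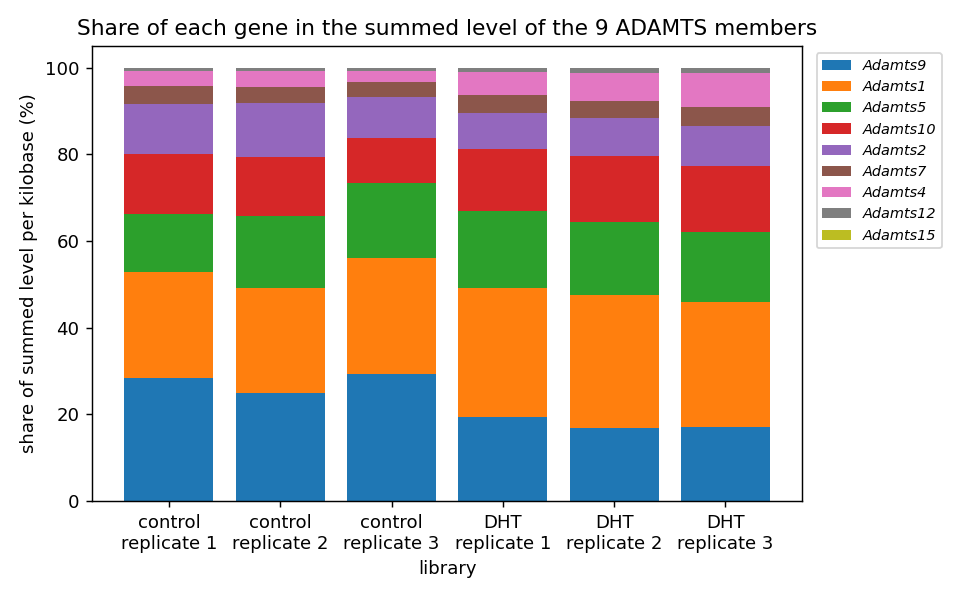
Share of each gene in the summed level per kilobase (%) in each library, stacked from the gene with the largest control share upwards. The bottom segment, *Adamts9*, holds 24.8% to 29.4% in control and 16.8% to 19.4% in DHT, and the segment of *Adamts4* is wider in DHT.

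Of the proteoglycan-cleaving members, *Adamts4* was the one that rose. Its product is an aggrecanase that also cleaves versican and brevican, and the gene (ENSMUSG00000006403) lies on the plus strand of chromosome 1 of GRCm38, from 171250421 to 171260637. The control libraries held 449, 552 and 439 normalized counts and the DHT libraries 800.5, 1031 and 1131. Every DHT library was thus above every control library, and DHT replicate 1 was the lowest of its group. The mean rose 2.06-fold, a log2 fold change of 1.03 with a 95% confidence interval of 0.73 to 1.33 and an adjusted p of 0.0014 (limma, Benjamini-Hochberg). The log2 fold change was close to the threshold of 1 and came to 0.99 without control replicate 1, 0.97 without control replicate 3, 0.99 without DHT replicate 2 and 0.93 without DHT replicate 3, where the highest adjusted p by limma was 0.0094.

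*Adamts9*, the most abundant member in control and the gene of a versican-cleaving protease, fell. It lies on the minus strand of chromosome 6, from 92772699 to 92943492 (ENSMUSG00000030022). Normalized counts were 11929, 11747 and 16228 in control and 9424, 8248 and 7733 in DHT. Control replicate 3 stood above the other control libraries, and all 3 DHT libraries lay below the lowest control library. The mean fell by 36.3% in DHT (log2 fold change of -0.64, 95% confidence interval of -0.91 to -0.37, adjusted p = 0.0098 by limma). Without DHT replicate 3 the adjusted p was 0.052, and without the intensity trend of limma it was 0.084. Of the exonic bases of *Adamts9*, 9.18% are also exons of *A730049H05Rik* on the other strand, and reads of both cannot be told apart if strand was not used. *A730049H05Rik* fell as well, with a log2 fold change of -0.82 (adjusted p = 0.0059 by limma) at a control mean of 459 normalized counts.

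*Adamts1* is the ADAMTS gene best known in ovulation. The 3 control libraries held 3628, 4044 and 5215 normalized counts and the DHT libraries 5114, 5298 and 4559.8. Control replicate 3 lay within the DHT range, so the groups overlapped. The log2 fold change was 0.23 with a 95% confidence interval of -0.03 to 0.49 and an adjusted p of 0.26 (limma, Benjamini-Hochberg). It was 0.38 without control replicate 3 (adjusted p = 0.0084 by limma) and 0.12 without control replicate 1 (adjusted p = 0.57).

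*Adamts5*, which encodes an aggrecanase, is the neighbour of *Adamts1* on the minus strand of chromosome 16. *Adamts1* spans 85793827 to 85803113 (ENSMUSG00000022893), *Adamts5* spans 85856173 to 85901828 (ENSMUSG00000022894), and 53059 bases lie between the 2 genes. The libraries held 4067, 5622 and 6803 normalized counts of *Adamts5* in control and 6151, 5870.0 and 5170.4 in DHT. As with *Adamts1*, control replicate 1 was the lowest of the control libraries and control replicate 3 the highest, and DHT replicate 3 was the lowest of the DHT libraries. Its log2 fold change was 0.09, and the interval of -0.26 to 0.44 allows a difference in either direction (adjusted p = 0.78 by limma). It was -0.11 without control replicate 1 (adjusted p = 0.53 by limma) and 0.26 without control replicate 3 (adjusted p = 0.22), again short of the threshold.

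*Adamts15*, the gene of a further versican-cleaving protease, was at the edge of detection, with 5 to 16 reads per library. The normalized counts were 7.92, 13.0 and 4.63 in control and 10.8, 7.64 and 17.4 in DHT, and no difference was detectable at this depth (log2 fold change of 0.47, 95% confidence interval of -0.53 to 1.47, adjusted p = 0.56 by limma). With 1 library left out, the log2 fold change ranged from 0.14 without control replicate 3 to 0.80 without control replicate 2.

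*Adamts2* encodes the protease that removes the amino-terminal propeptide of fibrillar procollagens (ENSMUSG00000036545, chromosome 11, 50602084 to 50807573, plus strand). The control libraries held 2970.3, 3661 and 3198 normalized counts and the DHT libraries 2506, 2666 and 2617. All DHT libraries were below all control libraries, with a narrow spread among the former. The mean fell by 20.8% in DHT (log2 fold change of -0.33, 95% confidence interval of -0.49 to -0.17, adjusted p = 0.018 by limma). The adjusted p by limma was 0.059 without DHT replicate 1, 0.065 without DHT replicate 3 and 0.0999 without the intensity trend.

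The promoters of the 2 members that fell, and of *Adamts1* as the most abundant member in DHT, are shown to set the start regions side by side. Sequences were available from RefSeq (GRCm38.p6) for 4 of the 9 members, namely *Adamts1*, *Adamts2*, *Adamts9* and *Adamts12*. Each line gives the 250 bases before the RefSeq start in the direction of the gene, with GC boxes (GGGCGG or its reverse complement CCGCCC, the motif bound by Sp1) in capitals. For *Adamts9* that start lies outside the GENCODE span of the gene, which ends at 92943492. The bases checked after that start matched no GENCODE transcript of *Adamts9*. The windows are chr6:92943535-92943784 on the minus strand for *Adamts9*, chr11:50601835-50602084 on the plus strand for *Adamts2* and chr16:85803114-85803363 on the minus strand for *Adamts1*.
Adamts9: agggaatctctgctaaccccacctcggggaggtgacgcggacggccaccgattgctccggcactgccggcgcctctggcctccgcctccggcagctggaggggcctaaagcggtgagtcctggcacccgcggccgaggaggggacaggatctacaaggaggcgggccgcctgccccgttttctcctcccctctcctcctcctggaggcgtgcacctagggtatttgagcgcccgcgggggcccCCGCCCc
Adamts2: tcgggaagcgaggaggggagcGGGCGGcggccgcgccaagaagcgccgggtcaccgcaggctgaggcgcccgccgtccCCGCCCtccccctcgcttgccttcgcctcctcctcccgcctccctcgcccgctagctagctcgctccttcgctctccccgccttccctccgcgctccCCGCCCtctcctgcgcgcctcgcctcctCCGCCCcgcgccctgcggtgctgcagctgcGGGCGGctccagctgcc
Adamts1: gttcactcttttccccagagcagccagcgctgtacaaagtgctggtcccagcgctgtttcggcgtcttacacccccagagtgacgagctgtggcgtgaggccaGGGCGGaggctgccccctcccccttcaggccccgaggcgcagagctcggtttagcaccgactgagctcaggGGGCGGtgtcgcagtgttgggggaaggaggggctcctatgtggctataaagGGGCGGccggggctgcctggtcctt

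The window of *Adamts2* held 5 GC boxes, that of *Adamts1* held 3, that of *Adamts9* held 1 and that of *Adamts12* none. Of all 32851 promoter windows of this length, 32.7% held at least 1. The E-box CACGTG, which reads the same on both strands, was found in none of the 4 and in 6.02% of all windows. Such matches describe the letters of these windows only.

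*Adamts10* encodes a protease that binds fibrillin microfibrils (ENSMUSG00000024299, chromosome 17, 33524204 to 33553782, plus strand). Normalized counts were 3187, 3568 and 3192 in control and 3816, 4089 and 3759 in DHT. The groups did not overlap, although the step between the highest control and the lowest DHT library was small. The mean was 17.3% higher in DHT, with a log2 fold change of 0.23, a 95% confidence interval of 0.11 to 0.35 and an adjusted p of 0.028 (limma, Benjamini-Hochberg). This call did not hold when most of the libraries were left out. The adjusted p by limma was 0.079 without control replicate 1, 0.055 without control replicate 3, and 0.059, 0.12 and 0.061 without DHT replicate 1, 2 or 3. It was 0.12 without the intensity trend.

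*Adamts7* and *Adamts12* encode a related pair of proteases known to degrade cartilage oligomeric matrix protein. *Adamts7* had 761, 697 and 795 normalized counts in control and 861, 813 and 794 in DHT. The lowest DHT library lay just under the highest control library (log2 fold change of 0.13, 95% confidence interval of -0.02 to 0.28, adjusted p = 0.25 by limma), and without control replicate 2 the log2 fold change was 0.08. *Adamts12* had 239, 291 and 346 in control and 383, 399 and 402 in DHT. Its groups did not overlap, and the DHT libraries were much closer to each other than the control libraries. The log2 fold change of *Adamts12* was 0.45 with a 95% confidence interval of 0.17 to 0.73, and its adjusted p of 0.051 by limma just missed the threshold. The adjusted p by limma was 0.0067 without control replicate 3 and between 0.098 and 0.16 without any other single library, and a Wald test by DESeq2 on the recovered reads gave 0.017.

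**Figure D3:**
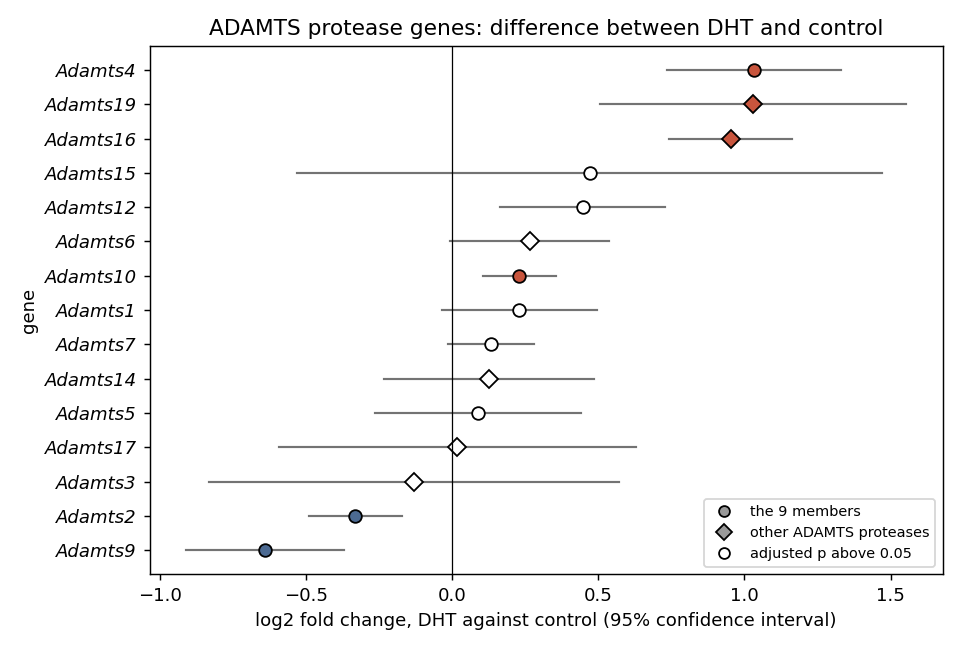
Log2 fold change between DHT and control with its 95% confidence interval for the 9 members (circles) and the 6 other ADAMTS proteases (diamonds). Filled symbols have an adjusted p of at most 0.05, red for higher and blue for lower in DHT. *Adamts4*, *Adamts19* and *Adamts16* lie near a log2 fold change of 1.

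Of 10 further ADAMTS proteases on the list around the members, 6 were tested, 2 were higher and none was lower in DHT. For this and the following lists, the shares over all genes tested were 6.52% higher and 4.66% lower, and no list was tested as a set. *Adamts16* (ENSMUSG00000049538) had 737, 813 and 953 normalized counts in control and 1722, 1487 and 1622 in DHT, a log2 fold change of 0.95 with a 95% confidence interval of 0.74 to 1.16 and an adjusted p of 0.00040 (limma, Benjamini-Hochberg). *Adamts19* (ENSMUSG00000053441) had 987, 1942 and 2026 in control and 3546, 3021 and 3095 in DHT. Control replicate 1 stood well below the other control libraries, and all DHT libraries were above all of them. *Adamts19* had a log2 fold change of 1.03 (95% confidence interval of 0.51 to 1.55, adjusted p = 0.023 by limma). Leaving out DHT replicate 1, 2 or 3 gave an adjusted p by limma of 0.071, 0.061 and 0.077, and leaving out the intensity trend one of 0.12. *Adamts3*, *Adamts6*, *Adamts14* and *Adamts17* had log2 fold changes from -0.13 to 0.27, none past the threshold. *Adamts8*, *Adamts13*, *Adamts18* and *Adamts20* were not analysed here.

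The ADAMTS-like proteins resemble the proteases but lack the catalytic domain. Of 7 on the list, 5 were tested, none was higher and 2 were lower. *Thsd4*, whose product binds microfibrils, had a mean of 709.8 ± 60.6 normalized counts in control and fell to 399 ± 49.4 in DHT (SD). Its log2 fold change was -0.83 (adjusted p = 0.0012 by limma). *Adamtsl4* had one of -0.33 (adjusted p = 0.031 by limma), and that p was 0.074 without the intensity trend and between 0.055 and 0.098 when control replicate 1, control replicate 3 or any of the DHT libraries was left out.

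Among the proteoglycan substrates and the link proteins that bind them to hyaluronan, 6 of 8 genes were tested, with none higher and 1 lower. *Vcan*, the gene of versican, had 983, 1173 and 1484 normalized counts in control and 1246, 911 and 917 in DHT. The groups overlapped, and the log2 fold change of -0.24 had a 95% confidence interval of -0.60 to 0.12 (adjusted p = 0.39 by limma). Without control replicate 3 it was -0.08, without control replicate 1 -0.38 and without DHT replicate 1 -0.39, none past the threshold. *Acan*, the gene of aggrecan, was low, with means of 66.6 in control and 30.9 in DHT, and its log2 fold change of -1.10 did not pass (adjusted p = 0.083 by limma). *Bcan*, the gene of brevican, averaged 160.3 ± 44.8 normalized counts in control and fell to 82.6 ± 8.64 in DHT (SD). Its log2 fold change was -0.91 (adjusted p = 0.024 by limma). Its adjusted p was 0.092 without the intensity trend and between 0.056 and 0.082 when control replicate 1, control replicate 2 or any of the DHT libraries was left out.

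On the list of collagens, microfibrils and other matrix proteins, 10 of 11 genes were tested, with none higher and 4 lower (6.52% and 4.66% of all genes tested). *Nid2*, which encodes a basement membrane linker, averaged 3672 ± 1089 normalized counts in control and fell to 1490.1 ± 320 in DHT (SD), and its log2 fold change was -1.28. *Fn1*, the gene of fibronectin, had a log2 fold change of -0.80, *Nid1* one of -0.74, and *Fbn1*, the gene of the main fibrillin, one of -0.37. The adjusted p by limma was 0.0037 for *Nid2*, 0.00062 for *Fn1*, 0.00056 for *Nid1* and 0.0020 for *Fbn1*, and that of *Nid2* was 0.056 without the intensity trend. The collagen genes *Col1a1*, *Col1a2*, *Col3a1* and *Col5a1*, whose products include substrates of ADAMTS2, had log2 fold changes from -0.13 to 0.30, and none passed the threshold.

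Many ADAMTS proteases are matured by proprotein convertases, and some are inhibited by TIMP3 or cleared by the receptor LRP1. Of 14 genes on this list, all were tested, 2 were higher and 1 was lower. *Timp3* averaged 2398 ± 57.3 normalized counts in control and rose to 3042 ± 189 in DHT (SD). Its log2 fold change was 0.34 (adjusted p = 0.0030 by limma). *Timp4* rose at a lower level, 74.8 ± 4.51 in control against 126.9 ± 5.87 in DHT, and had a log2 fold change of 0.76 (adjusted p = 0.0060 by limma). *Fbln2*, the gene of a fibulin of the extracellular matrix, had one of -0.57 (adjusted p = 0.024 by limma). Leaving out replicate 1 or 2 of either group put that p between 0.051 and 0.084, and it was 0.10 without the intensity trend. *Furin* and *Lrp1* did not pass, with 95% confidence intervals of the log2 fold change from -0.06 to 0.12 and from -0.03 to 0.15 (adjusted p of 0.67 and 0.38 by limma). With 1 library left out, their log2 fold changes ranged from 0.01 to 0.06 and from 0.04 to 0.08.

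Of 16 regulators of the follicle on the list, 3 were higher and 2 were lower. *Pgr*, the gene of the progesterone receptor, was low throughout, with 25.7, 31.6 and 25.9 normalized counts in control and 8.81, 8.73 and 12.0 in DHT. All DHT libraries lay below all control libraries, and its log2 fold change was -1.42 (95% confidence interval of -2.02 to -0.81, adjusted p = 0.010 by limma). *Runx1*, *Cebpb* and *Hif1a* rose, with log2 fold changes of 0.42, 0.32 and 0.30 and adjusted p values of 0.0077, 0.0038 and 0.0021 (limma), that of *Runx1* being 0.074 without the intensity trend. *Nrip1*, a coregulator of nuclear receptors needed for ovulation, fell slightly (log2 fold change of -0.21, adjusted p = 0.037 by limma), and that p was between 0.054 and 0.12 when any library other than control replicate 3 was left out and 0.14 without the intensity trend.

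**Figure D4:**
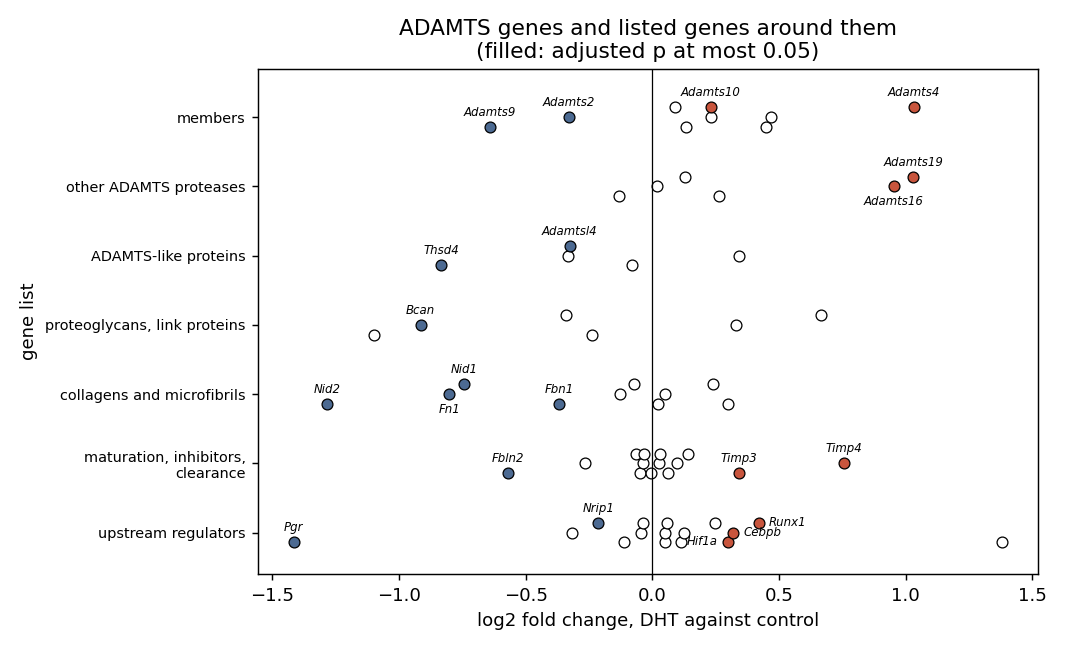
Log2 fold change between DHT and control of every tested gene on the member list and on the 6 lists around it, 1 point per gene, spread vertically for legibility. Named, filled points have an adjusted p of at most 0.05. The filled points of the 3 matrix lists (ADAMTS-like proteins, proteoglycans, collagens and microfibrils) are all on the lower side, while the open points of each of these lists lie on both sides.

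Across the 6 libraries, the genes most like *Adamts4* in their log2 values were *Akr1c14*, *Bst2* and *Palmd*, each with a Pearson correlation of 0.998. For *Adamts1*, the member with the highest level per kilobase over both groups, they were *Zfp872*, *Arhgap26* and *Zfp335*, with correlations of 0.998, 0.995 and 0.993. These were the highest of 16291 genes over only 6 libraries, and for *Adamts4* they include the step between the groups.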

How the data were processed

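RNA was sequenced from 6 libraries of mouse GCs, grouped by the treatment characteristic of each sample. The authors trimmed reads with Trimmomatic 0.36, mapped them to GRCm38 with STAR 2.5.2b, counted unique reads in exons with featureCounts of Subread 1.5.2, and deposited as signal the counts divided by the DESeq2 size factor of each library. The annotation release and strand setting are not given in the sources used here. Columns of the authors' own fold changes and p-values, and a second table of 190 genes with the same values, were not used. Dividing each library by the spacing of its values gave whole reads (tolerance of 0.001) for 100% of genes, and gene filtering before deposit had left means of at least 10.2 reads.

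The main test was that of limma (version 3.58.1, R 4.3.3) on log2 values after a pseudocount of 1, which shrinks the fold changes of low genes. It included an intensity trend, covered the genes whose mean over the libraries reached 10 or more, and was adjusted by Benjamini-Hochberg. Exonic lengths and positions came from GENCODE M21 (GRCm38). Alternatives were other pseudocounts (0.5 and 8), filters (none and 50) and scalings, no trend, the replicate number as a block, edgeR 4.0.16 and DESeq2 1.42.0 on the recovered reads, and each library left out in turn. In simulated counts the changes were larger than that of any member, so their recovery does not show the power for these genes. The share of false calls among the calls there was above the nominal level, so the adjusted p-values may be too small. Sums of markers without their most abundant gene were added after seeing the data. Members, gene lists and naming rule (all members, listed genes past the threshold, and *Vcan*, *Pgr*, *Timp3*, *Furin* and *Lrp1*) were chosen with earlier results of these data known. *Acan*, 3 oocyte markers, the collagen genes, the antisense partners and the ADAMTS genes listed without a call were named after their values were seen. An exact permutation test of 3 libraries against 3 cannot give a p below 0.1. A further promoter motif that was searched is not reported here.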

Additional observations from a re-analysis of the deposited data

How the results depend on the processing

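The numbers of members higher (2) and lower (2) in DHT were 1 and 0 without the intensity trend of limma. With each library left out in turn they ranged from 1 to 3 and from 0 to 2, and the number past both thresholds, 1 with all libraries, ranged from 0 to 1. The log2 fold change of *Adamts5* ranged from -0.11 (without control replicate 1) to 0.26, the only change of direction among the members, and the cause was not tested. The replicate block left 2 members higher, 2 lower and 1 past both thresholds, although the numbers did not pair the libraries: deviations of same-numbered libraries had correlations of 0.006, 0.07 and -0.24, and control replicate 1 correlated best with DHT replicate 3 (0.23). The block raised the adjusted p to 0.073 for *Adamtsl4*, 0.072 for *Fbln2*, 0.062 for *Nrip1*, 0.065 for *Csf1r* and 0.13 for *Foxl2*. It changed no other call among the genes of the naming rule, which does not cover *A730049H05Rik*. Over all genes, 1823 passed the adjusted p, against 804 without the trend, 990 with the block and 931 to 2094 with a library left out, and 213 passed both thresholds, against 131 with a mean of at least 50 and 138 to 286 with a library left out. The summed level gave a ratio of 0.927 to 1.06 with a library left out. Pseudocounts, TMM scaling, quantile normalization and edgeR changed no call of a member, and *Adamts12* passed with a mean of at least 50 (adjusted p = 0.049 by limma). *Adamts15* had only 5 to 16 reads per library, and whether depth hid a difference was not tested.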
